A study of Homo sapiens with 72 samples.

Results

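In wildtype DU145 cells, 31 miRNAs had many calls of added adenosine (A) and almost none of added uridine (U) at the 3′ end. They are 31 of 403 miRNAs measured there, out of 2388 mature miRNA names in all. Members were chosen by 3 values averaged over the 4 wildtype DU145 libraries: at least 50 reads, an A share of at least 10% and a U share under 2%, leaving out let-7, miR-98 and miR-21. The A share is the percentage of the reads of a miRNA called with a 3′ nontemplated addition made only of A. The U share is its counterpart for additions made only of U. For some members the called position lies away from the annotated mature end, as given below. Those choosing values ranged from 63.25 to 218620 reads (median 453.25), from 10.1% to 35.8% A (median 15.96%) and from 0% to 1.93% U (median 1.01%). They describe how the list was made and are not results.

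Mature miRNAs are short RNAs that guide Argonaute proteins to mRNAs, mainly through the seed, which spans bases 2 to 8. Their 3′ end can be extended by terminal nucleotidyltransferases. TUT4 (ZCCHC11) and TUT7 (ZCCHC6) add U, and GLD2 (PAPD4, also TENT2) is the best known enzyme that adds A to mature miRNAs. LIN28A binds let-7 precursors and brings TUT4 and TUT7 to them. The comparison here asks whether A rises in the double knockouts on miRNAs that have little U to lose.

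The series holds 72 libraries, 36 of small RNA and 36 of poly(A) RNA, in 9 groups of 4 for each kind. The lines were DU145, a prostate cancer line labelled LIN28A negative, the same line overexpressing LIN28A from a lentivirus under a CMV promoter, and IGROV1, an ovarian cancer line labelled LIN28A positive. Each had a wildtype (WT) and 2 TUT4/7 catalytic knockout (cKO) clones made by CRISPR/Cas9 at exon 12 of TUT4 and exon 14 of TUT7. The labels give the LIN28A-overexpressing mutants the clone names of the DU145 mutants, so both DU145 backgrounds share their clones. The 4 replicates of a group are successive passages (9 to 12 and 8 to 11 for clones 1 and 2 of DU145, whose WT was at a far higher passage, 1 to 4 for all 3 LIN28A-overexpressing groups, and 6 to 9, 2 to 5 and 3 to 6 for IGROV1 WT, clone 1 and clone 2). The titles and methods give each mutant as 1 clone, while the clone number in the labels changes with the replicate for clone 2 of DU145 and for both IGROV1 mutants. They are treated here as passages of 1 clone, so that SDs, SEs and p-values measure the spread between passages. Passage range and genotype cannot be told apart in DU145 and IGROV1, and neither can a knockout and the history of its clone.

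Several of these miRNAs shared a seed. Among the 28 with a RefSeq entry (GRCh38.p14) there were 25 distinct seeds, and 2 of these seeds were shared by 5 miRNAs. Those 5 and the other miRNAs on which the comparisons turn are printed here 5′ to 3′, with the seed in capitals.
miR-17-5p: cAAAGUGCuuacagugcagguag
miR-93-5p: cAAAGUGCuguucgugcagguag
miR-20b-5p: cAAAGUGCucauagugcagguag
miR-29a-3p: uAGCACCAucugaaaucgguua
miR-29c-3p: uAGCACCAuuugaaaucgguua
miR-18a-5p: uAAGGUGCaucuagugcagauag
miR-31-5p: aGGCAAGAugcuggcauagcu
miR-155-5p: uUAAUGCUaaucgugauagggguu
miR-574-5p: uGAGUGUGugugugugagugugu
miR-942-5p: uCUUCUCUguuuuggccaugug

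miR-17-5p, miR-93-5p and miR-20b-5p belong to the miR-17 family, known for promoting the cell cycle, and miR-17-5p and miR-18a-5p come from 1 polycistron. miR-17-5p lies at chr13:91350618-91350640 and miR-18a-5p at chr13:91350756-91350778, both on the plus strand and exonic in the noncoding host gene MIR17HG (GENCODE v44). miR-93-5p lies at chr7:100093815-100093837 on the minus strand, in an intron of MCM7. miR-29a-3p lies at chr7:130876748-130876769 on the minus strand, in an intron of LINC-PINT. miR-31-5p lies at chr9:21512158-21512178 on the minus strand, in an intron of MIR31HG. miR-155-5p lies at chr21:25573983-25574006 on the plus strand, exonic in MIR155HG, and miR-574-5p at chr4:38868056-38868078 on the plus strand, in an intron of FAM114A1. miR-942-5p lies at chr1:117094655-117094676 on the plus strand, in an intron of TTF2. miR-29a-3p and miR-29c-3p differ in 1 base, and miR-17-5p and miR-20b-5p in 2, so reads of such pairs may have been divided between them.

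The base that follows these miRNAs in the genome, called a precursor base here, was often U. The first precursor base after the mature end was U in 20 of the 28 matched miRNAs (71.4%), against 109 of 340 measured miRNAs (32.1%). It was U in 22.4% of 76 miRNAs with at least 10% A and at least 2% U, and in 12.7% of 71 miRNAs with at least 10% U. The last 8 mature bases are given here for 6 of them, with the next 8 precursor bases in capitals, because the first capital is the base that follows the annotated mature end.
miR-17-5p: gcagguagUGAUAUGU
miR-93-5p: gcagguagUGUGAUUA
miR-29a-3p: aucgguuaUAAUGAUU
miR-185-5p: guuccugaUGGUCCCC
miR-532-5p: aggaccguUGGCAUCU
miR-31-5p: gcauagcuGUUGAACU

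This excess of U is not independent of the rule, because the same base bore on what could be counted as a U addition. Positions are given with 1 as the first base after the mature end, a reading of the calls that was inferred from the data. In WT DU145, U at the first position after the mature end made up 0.0659% of U-tailed reads (31 reads) in miRNAs whose next base is U. It made up 23.0%, 35.5% and 31.9% in miRNAs whose next base is A, C and G. An added U at that position cannot be told apart from a base copied from the precursor, and the deposited calls hold almost no such additions. The median U share in WT DU145 was 1.25% where the next base is U and 5.41%, 5.30% and 3.91% where it is A, C and G, and it was under 2% in 68 of 109 miRNAs with a next U (62.4%). How far the low U shares of the 31 miRNAs rest on the calling of templated U was not tested.

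Many of the A additions were read at the same place. In WT DU145, 229626 A-tailed reads of these miRNAs had a precursor base that could be read. Of these, 87.5% had the A where the precursor has U, against 46.1% of 670682 such reads over all measured miRNAs, members included. miRNAs without a matched base, miR-374a-5p among them, are not in these numbers. The percentages are weighted by reads, and miR-29a-3p had the most (a mean of 218620 reads per library). The most frequent A position lay over a precursor U in 21 of the 27 miRNAs for which it could be read (77.8%), against 107 of 285 (37.5%), and against 28.8% of 73 and 13.6% of 66 in the sets with at least 2% and at least 10% U. That position was the first base after the mature end for 98.6% of A-tailed reads of miR-29a-3p, 99.4% of miR-374a-5p and 93.7% of miR-17-5p. It was the second base for miR-31-5p (57.8%), miR-574-5p (43.8%) and miR-155-5p (42.5%), and the third for miR-942-5p (78.2%). Their A-tailed reads thus often began beyond the annotated end. For miR-567, 98.4% of A-tailed reads were called at position 52, for miR-3613-3p 86.2% at -11, and for miR-4485-3p 53.1% at -3. These calls do not place the A at the mature end. In the miRNA counts, miR-567 was at 0 CPM in every group.

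**Figure D1:**
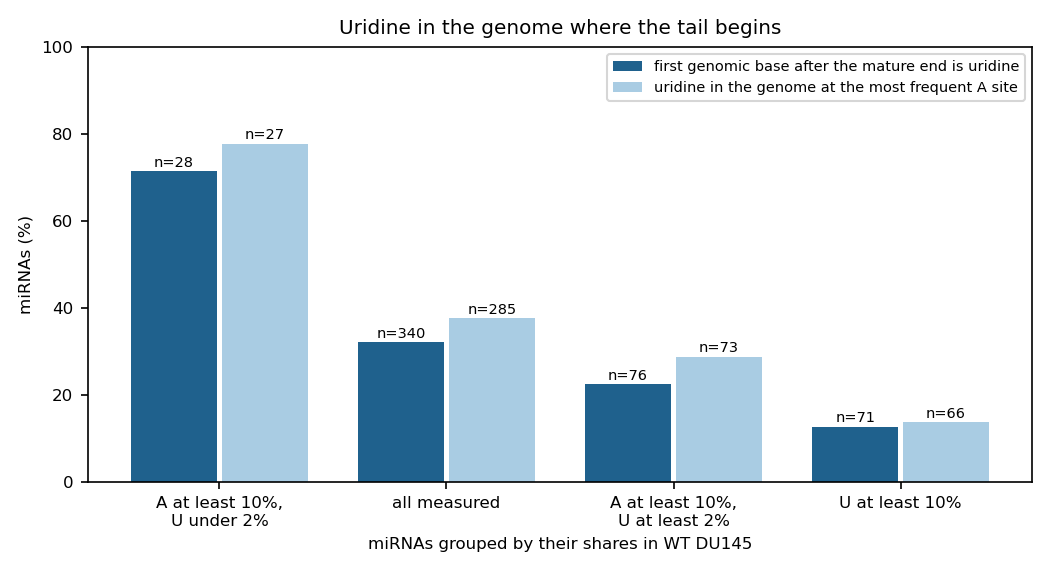
Percentage of miRNAs (y axis) in 4 sets defined by A and U shares in WT DU145 (x axis) whose first precursor base after the mature end is U (dark bars) or whose most frequent A position lies over a precursor U (light bars); n is the number of miRNAs. The set with at least 10% A and under 2% U stands at 71.4% and 77.8%, and the set with at least 10% U at 12.7% and 13.6%.

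The arms also differed in number: 19 of the 31 names were 5p, 8 were 3p and 4 gave no arm, so 61.3% were 5p against 41.4% of all measured miRNAs and 22.1% of those with at least 10% U. The A tails were mostly of a single base. In 27 of these miRNAs with enough A-tailed reads, tails of at least 2 A made up between 0.484% (miR-29a-3p) and 55.2% of A-tailed reads in WT DU145, with a median of 18.8%, and 6 miRNAs reached 40%. In miR-155-5p they made up 45.4% in WT, 53.4% in clone 1 and 44.5% in clone 2.

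The small RNA libraries held 5707942 to 14067165 reads in the modification calls. Over all miRNAs, the mean U percentage of reads fell from 1.87% in WT to 0.0893% and 0.200% in clones 1 and 2 of DU145, from 1.91% to 0.111% and 0.267% in LIN28A-overexpressing DU145, and from 2.45% to 0.342% and 0.424% in IGROV1. No pair of replicate libraries agreed within sampling noise, so all were kept. The mRNA of LIN28A followed its labels. It stood at 0.11 to 0.14 CPM (read counts scaled to library size) in the DU145 groups and at 241, 224 and 285 CPM in WT, clone 1 and clone 2 of IGROV1. In LIN28A-overexpressing DU145 it was at 69.0 CPM in WT, 366 in clone 1 and 233 in clone 2 (log2 fold change 2.08, adjusted p = 9.1e-08, edgeR). The level of LIN28A and the genotype cannot be told apart in that background. EPCAM, an epithelial surface protein, was at 82.6 CPM in WT IGROV1 and at 0.265 and 0.137 CPM in its clones. KRT8 and KRT18, epithelial keratins, were at 208 and 241 CPM in WT IGROV1, at 3.12 and 325 CPM in clone 1 and at 1.65 and 35.2 CPM in clone 2. CDH1, an epithelial cadherin, was at 4.82, 1.03 and 0.24 CPM there, while PAX8, an ovarian marker, was at 683, 886 and 567 CPM in its WT and clones and WT1, another, at most at 1.03 CPM. KLK3, a prostate luminal marker, was at or near 0 in DU145. EPCAM was at 54.77, 11.51 and 54.26 CPM in WT, clone 1 and clone 2 of DU145. With LIN28A overexpressed it was at 40.55, 15.03 and 72.67 CPM, so clone 1 alone lay well below WT in both. CDH1 was at 85.48, 41.65 and 61.32 CPM in DU145 and at 160.4, 95.38 and 140.9 CPM with LIN28A overexpressed. The means of KRT8 and KRT18 were higher in both clones of each DU145 background, but these changes did not pass the test. The part of these differences in the results below was not tested.

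In DU145 itself, the A share of these miRNAs was higher in cKO than in WT libraries for 27 of 31. This is a description without a test, because the WT libraries chose the members. The same count over all measured miRNAs was not made, so it is not a result about the list. Over all miRNAs, the mean A percentage of reads was 7.72% in WT, 9.44% in clone 1 and 9.22% in clone 2. The median A share was 15.96% in WT, 23.4% in clone 1 and 18.6% in clone 2, and clone 1 lay above clone 2 for 28 of 31. The difference between the mean of the clones and WT had a median of 3.67 percentage points and a range of -1.54 to 13.4. It exceeded the whole WT U share for 25 of 31. The low U share that the rule asked for in these same WT libraries makes that easier to reach. For 11 of 31 all 8 cKO libraries lay above all 4 WT libraries, beside 27.2% of 383 miRNAs in all, and for none did all 8 lie below.

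**Figure D2:**
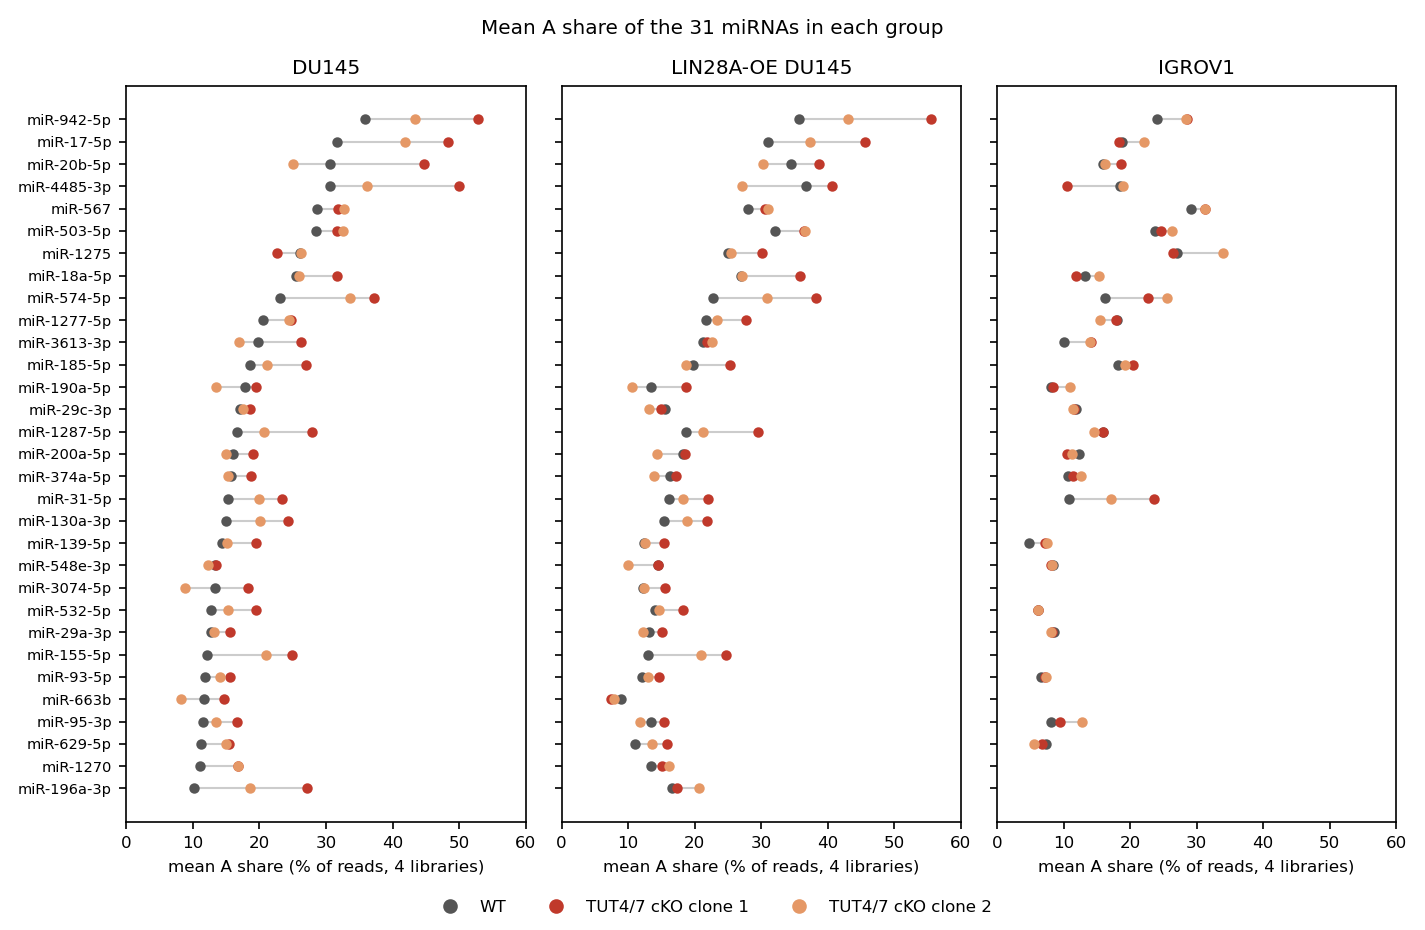
Mean A share over 4 libraries (x axis, percent of reads) for each of the 31 miRNAs (y axis) in WT and in TUT4/7 cKO clones 1 and 2 of each background; the 6 miRNAs not tested in IGROV1 are not drawn there. Clone 1 lies to the right of clone 2 for 28 of 31 in DU145 and 25 of 30 in LIN28A-overexpressing DU145, and for 11 of 25 in IGROV1.

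LIN28A-overexpressing DU145 and IGROV1 took no part in the choice of members and were therefore tested. Most members kept the profile that had defined them: 25 of 30 tested in LIN28A-overexpressing DU145 WT and 14 of 25 in IGROV1 WT had at least 10% A with under 2% U. The IGROV1 WT libraries had lower A shares, with a median of 12.3% over 25 members against 16.4% over 30. Over all miRNAs too, the mean A percentage of reads was lower, 3.11% in IGROV1 WT against 7.66% in LIN28A-overexpressing DU145 WT. In LIN28A-overexpressing DU145 the A share rose in 7 of 30 (23.3%) and fell in 0, beside 23.1% risen over all 432 miRNAs tested. In IGROV1 it rose in 4 of 25 (16%) and fell in 0, beside 21.4% risen over 426. Rose and fell mean an adjusted p under 0.01 in edgeR's quasi-likelihood test of A-tailed against all other reads. At an unadjusted p under 0.05, edgeR put 12 up and 0 down in LIN28A-overexpressing DU145, and 10 up and 1 down in IGROV1, and limma called none down in either.

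These shares lie near those over all miRNAs and are not a result about the list. The median log2 odds ratio of an A addition, cKO over WT, was 0.21 for the 30 miRNAs and 0.35 for all tested in LIN28A-overexpressing DU145, and 0.16 and 0.28 in IGROV1. The 82 miRNAs of WT DU145 with as much A but at least 2% U are the closest comparison. Of these, the A share rose in 44 of 80 tested in LIN28A-overexpressing DU145 (55%, median 0.60) and in 24 of 72 in IGROV1 (33.3%, median 0.38). Of the 77 with at least 10% U, 31 of which are in both sets, it rose in 46 of 73 (63.0%, median 0.69) and 32 of 70 (45.7%, median 0.68). The difference between these sets was not tested.

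**Figure D3:**
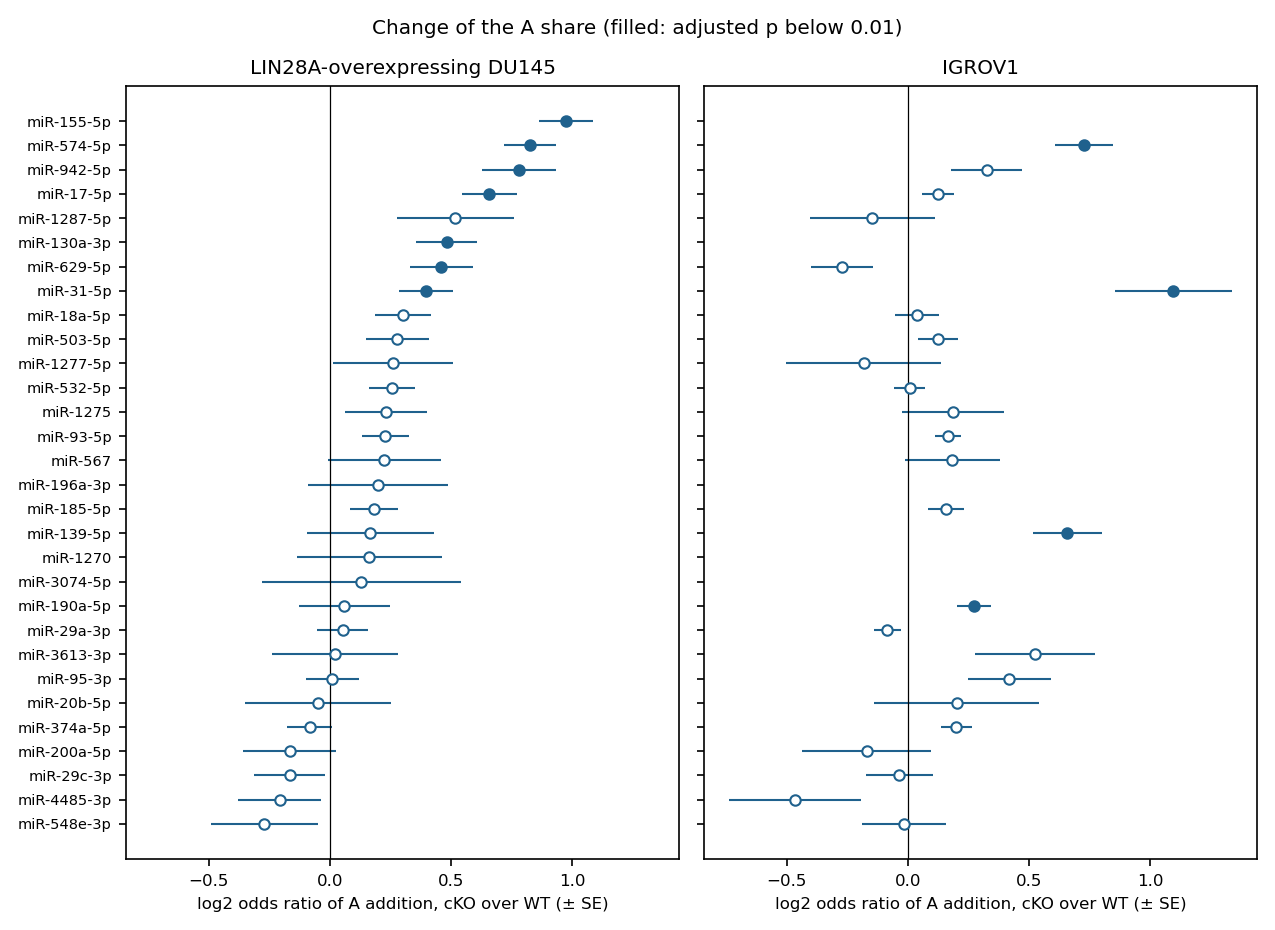
Log2 odds ratio of an A addition, cKO over WT, with its SE (x axis) for each member tested (y axis), 30 in LIN28A-overexpressing DU145 and 25 in IGROV1. Filled points passed an adjusted p of 0.01 in edgeR's test. The filled points, 7 in LIN28A-overexpressing DU145 and 4 in IGROV1, all lie right of 0.

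miR-17-5p rose in LIN28A-overexpressing DU145. Its A share was 36.6%, 32.5%, 26.8% and 28.1% in the 4 WT libraries, 49.4%, 45.3%, 41.5% and 46.4% in clone 1, and 39.6%, 35.3%, 39.0% and 35.3% in clone 2. All clone 1 libraries lay above WT, while those of clone 2 overlapped the highest WT library. The log2 odds ratio was 0.66 ± 0.11 (SE, adjusted p = 3.31e-05, edgeR), and clone 2 lay below clone 1 by -0.50 on that scale (adjusted p = 0.00609, edgeR). In DU145 the WT mean was 31.7% ± 2.6 (SD, n = 4), against 48.4% ± 1.5 in clone 1 and 41.9% ± 1.0 in clone 2. In IGROV1 its A share was 18.4%, 18.8%, 18.8% and 19.4% in WT, 18.1%, 19.3%, 19.2% and 16.9% in clone 1, and 20.6%, 23.4%, 24% and 20.6% in clone 2. There clone 2 alone lay above WT, and the change over both clones did not pass the test (adjusted p = 0.158, edgeR).

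miR-574-5p was the miRNA that rose in both tested backgrounds with every cKO library above every WT library. In LIN28A-overexpressing DU145 its A share was 24.2%, 22.7%, 22.4% and 21.9% in WT, 37.8%, 39.6%, 36.2% and 39.4% in clone 1, and 30.8%, 30.5%, 32.8% and 29.4% in clone 2. In IGROV1 it was 17.2%, 16.2%, 16.6% and 15.1% in WT, 24.2%, 24.3%, 17.5% and 24.9% in clone 1, and 28.0%, 26.3%, 23.9% and 24.2% in clone 2. The groups did not overlap in either line, although 1 library of clone 1 in IGROV1 lay just above WT. The log2 odds ratios were 0.83 ± 0.11 and 0.73 ± 0.12 (adjusted p = 2.28e-07 and 1.42e-05, edgeR). Its WT U share was 1.98% and 2.32%, so A gains of 11.7 and 7.92 percentage points were larger than the U that was counted. Its most frequent A position lies over a precursor U, where an added U may have gone uncounted.

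miR-31-5p, whose gene lies in a region of chromosome 9 often lost in tumours, was called in both backgrounds too, but with wide spread. In LIN28A-overexpressing DU145 its A share was 19.1%, 18.2%, 13.2% and 14.0% in WT, 22.1%, 22.6%, 19.9% and 23.2% in clone 1, and 19.1%, 18.7%, 18.6% and 16.7% in clone 2. Clone 2 lay within the WT range, and the call (0.40 ± 0.11, adjusted p = 0.00638, edgeR) was lost in 7 of 12 fits that each left out 1 library, with adjusted p up to 0.0692, and under limma and with the clones pooled. Those libraries were WT replicates 3 and 4, clone 1 replicates 2 and 4, and clone 2 replicates 1, 2 and 3. In IGROV1 it was 11.2%, 12.7%, 8.11% and 11% in WT, 22.2%, 17.3%, 31.2% and 23.4% in clone 1, and 25.5%, 17.9%, 15.6% and 9.52% in clone 2. That log2 odds ratio was 1.10 ± 0.24 (adjusted p = 0.000711, edgeR), with 1 clone 2 library inside the WT range and few reads in the clones, since the miRNA itself fell there from 65.2 CPM to 6.02 and 5.93 CPM (log2 fold change -3.32, adjusted p = 1.29e-10, edgeR). This call was lost under limma and when only additions of a single base were counted.

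**Figure D4:**
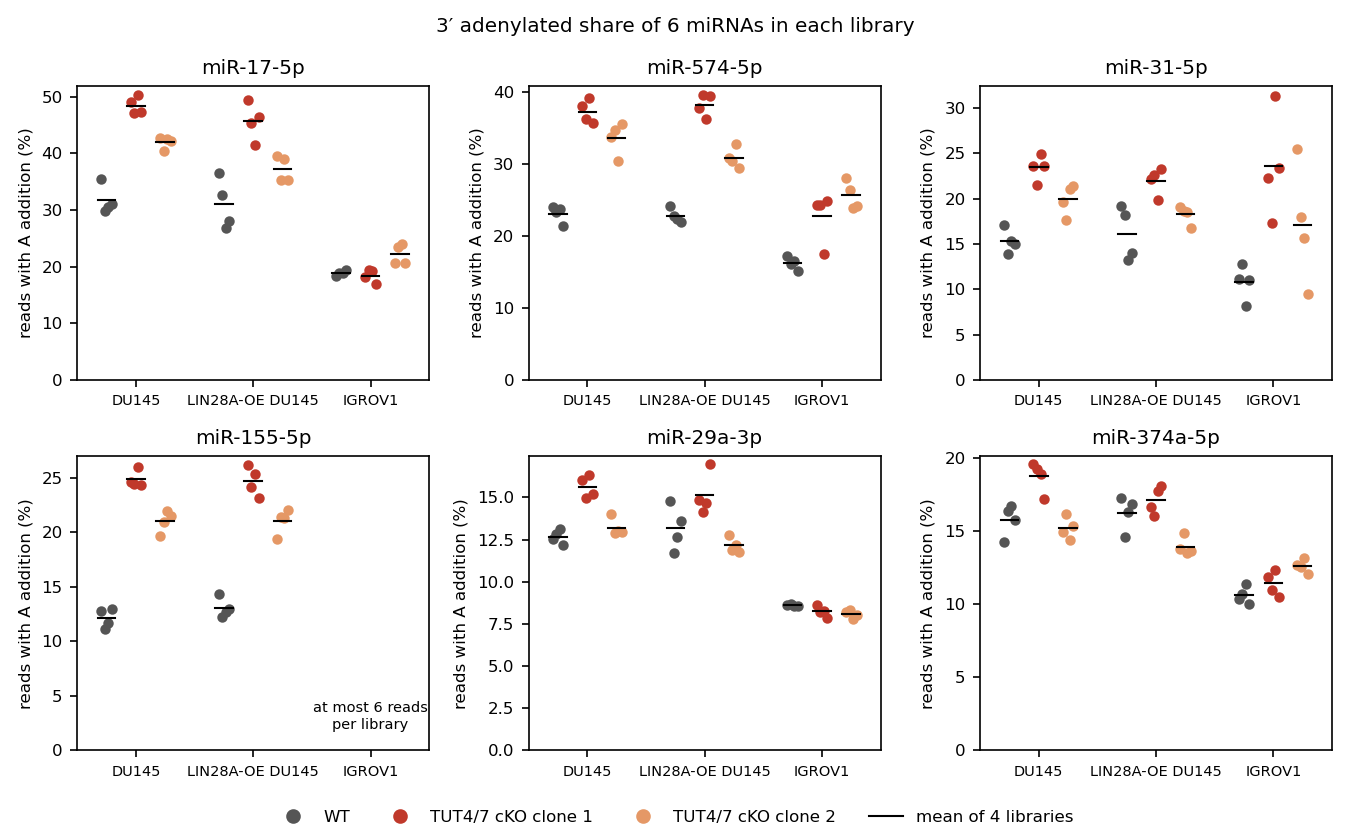
A share (y axis, percent of reads) of 6 miRNAs in each small RNA library, by background (x axis) and by WT, cKO clone 1 and cKO clone 2; each point is 1 library and each bar the mean of 4. In LIN28A-overexpressing DU145, miR-574-5p and miR-155-5p in cKO lie above all WT libraries, while clone 2 of miR-17-5p and miR-31-5p overlaps WT and miR-29a-3p overlaps throughout.

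The other rises are named here because they passed the test, and so were chosen after their values were seen. miR-155-5p, known for its part in immune cells, had the largest log2 odds ratio in LIN28A-overexpressing DU145 among those called, 0.97 ± 0.11 (adjusted p = 3.15e-08, edgeR). Its A share was 14.3%, 12.2%, 12.7% and 12.9% in WT, 26.2%, 24.2%, 25.3% and 23.1% in clone 1, and 19.4%, 21.4%, 21.3% and 22.0% in clone 2. The groups did not overlap, and DU145 gave a WT mean of 12.1% ± 0.87 (SD, n = 4) against 24.8% ± 0.76 and 21% ± 1.0. Its WT share of counted U was 0.626%, well below its A gain of 9.80 points, and IGROV1 held at most 6 of its reads per library and was not tested. The most frequent A position of miR-155-5p also lies over a precursor U.

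miR-942-5p rose by 0.78 ± 0.15 in LIN28A-overexpressing DU145 (adjusted p = 0.000125, edgeR). Its A share was 37.7%, 37.2%, 32.9% and 34.8% in WT, 49.2%, 53.4%, 61.6% and 57.5% in clone 1, and 45.7%, 41.2%, 42.3% and 43.2% in clone 2, so the groups did not overlap. Clone 1 thus carried A on more reads than not in 3 of its 4 libraries. Its WT U share was 4.05% here, above the limit of the rule. In IGROV1 the means were 24.1% ± 2.2 (SD, n = 4) in WT, 28.5% ± 2.2 in clone 1 and 28.5% ± 3.4 in clone 2, and the change did not pass the test (adjusted p = 0.0937, edgeR).

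miR-130a-3p rose by 0.48 ± 0.13 in LIN28A-overexpressing DU145 (adjusted p = 0.00287, edgeR), from 15.4% ± 1.8 (SD, n = 4) to 21.8% ± 3.6 and 18.8% ± 1.4. Its call was lost without WT replicate 2, under limma and with the clones pooled. miR-629-5p rose by 0.46 ± 0.13 (adjusted p = 0.00625, edgeR), from 12.5%, 11.5%, 10.1% and 9.78% in WT to 13.9%, 15.7%, 16.3% and 17.1% in clone 1 and 12.5%, 13.6%, 14.6% and 13.3% in clone 2. Clone 2 met the highest WT library at its lower end, and the call was lost with the clones pooled and in 7 of 12 fits that left out 1 library (WT replicates 2, 3 and 4, clone 1 replicates 3 and 4, clone 2 replicates 2 and 3). The WT U share of miR-629-5p was 0.0256%, so it had practically no counted U to lose.

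In IGROV1, miR-139-5p and miR-190a-5p were the other members that rose. miR-139-5p had an A share of 4.30%, 5.32%, 4.22% and 5.26% in WT, 7.91%, 7.11%, 7.45% and 6.37% in clone 1, and 7.20%, 7.73%, 7.59% and 7.62% in clone 2, without overlap (0.66 ± 0.14, adjusted p = 0.000626, edgeR). miR-190a-5p was at 7.89%, 7.68%, 7.82% and 9.0% in WT, 8.27%, 9.11%, 9.06% and 7.37% in clone 1, and 10.5%, 11.4%, 11.5% and 10.4% in clone 2. Clone 1 overlapped WT and clone 2 lay above it, and the call (0.27 ± 0.07, adjusted p = 0.00253, edgeR) was lost without WT replicate 1, 2 or 3, under limma, with the clones pooled and with additions of a single base only.

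miR-29a-3p, which targets collagen mRNAs and had the most reads, did not pass the test in either background. It had an A share of 14.8%, 11.7%, 12.6% and 13.6% in LIN28A-overexpressing DU145 WT, 14.8%, 14.1%, 14.7% and 17% in clone 1 and 12.8%, 11.9%, 12.2% and 11.8% in clone 2. The groups overlapped, with a log2 odds ratio of 0.05 ± 0.10 (adjusted p = 0.749, edgeR), while its U additions fell by 4.76 on the log2 odds scale from a share of 1.42%. In IGROV1 it was 8.60% ± 0.072 (SD, n = 4) in WT, 8.24% ± 0.30 in clone 1 and 8.07% ± 0.22 in clone 2, with -0.08 ± 0.06 (adjusted p = 0.268, edgeR).

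miR-374a-5p had hardly any U at the start, 0.020% in LIN28A-overexpressing DU145 WT and 0.00888% in IGROV1 WT. Its A share was 16.3% ± 1.2 (SD, n = 4), 17.1% ± 0.95 and 13.9% ± 0.64 in WT, clone 1 and clone 2 of the former, with clone 2 the lowest (adjusted p = 0.534 over both clones, edgeR). In IGROV1 it was 10.6% ± 0.57, 11.4% ± 0.85 and 12.6% ± 0.44, a log2 odds ratio of 0.20 (adjusted p = 0.0131, edgeR) that missed the threshold.

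miR-93-5p missed the threshold in both lines. In LIN28A-overexpressing DU145 its A share ranged from 11.2% to 13% in WT, from 13.9% to 15.6% in clone 1 and from 12% to 14.1% in clone 2, with a log2 odds ratio of 0.23 ± 0.10 (adjusted p = 0.0670, edgeR). In IGROV1 it ranged from 6.36% to 6.85% in WT, from 6.99% to 7.40% in clone 1 and from 7.18% to 7.73% in clone 2. Those groups did not overlap, yet the log2 odds ratio of 0.17 ± 0.05 missed the threshold (adjusted p = 0.0147, edgeR). miR-503-5p, miR-532-5p, miR-185-5p and miR-18a-5p had log2 odds ratios of 0.18 to 0.30 in LIN28A-overexpressing DU145 (adjusted p from 0.0355 to 0.177, edgeR) and of 0.01 to 0.16 in IGROV1 (adjusted p from 0.107 to 0.945, edgeR).

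The clones did not respond alike. In LIN28A-overexpressing DU145, clone 1 alone gave 10 rises among the 30 members with a median log2 odds ratio of 0.34, and clone 2 alone gave 2 with a median of 0.06. The A share was lower in clone 2 than in clone 1 in 8 members by edgeR's test of that difference, and higher in none. Over all 432 miRNAs tested there, clone 1 gave 141 rises (median 0.53) and clone 2 gave 50 (median 0.18). Clone 2 was lower in 61 of the 432 and higher in 2, so this split was not particular to the list. In IGROV1, clone 1 alone gave 3 rises and clone 2 alone 6, and clone 2 was higher in 3 members and lower in 0. Over all 426 miRNAs tested in IGROV1, clone 1 gave 80 rises and clone 2 gave 71. Clone 2 was higher in 15 of the 426 and lower in 22. Among these miRNAs the U share had fallen further in clone 1 than in clone 2 in LIN28A-overexpressing DU145 (median log2 odds ratios -4.44 and -2.73) and further in clone 2 than in clone 1 in IGROV1 (-1.81 and -2.32). The difference between the clones passed the test in 8 members, with more U in clone 2, and in 2 members, with less U in clone 2, respectively. Over all 372 miRNAs in LIN28A-overexpressing DU145 the medians of clones 1 and 2 were -4.475 and -2.91, with more U in clone 2 in 135 and less in 2. Over all 370 in IGROV1 the medians were close, -2.35 and -2.45, with more U in clone 2 in 25 and less in 17. The mRNA of TUT4 was lower in clone 1 of both DU145 backgrounds. The part of this in the A shares was not tested.

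The change in A share was also compared between the backgrounds in 1 fit. Of 28 members in that fit, 3 (miR-1270, miR-155-5p and miR-130a-3p) entered it through their reads in LIN28A-overexpressing DU145 and were too rare in IGROV1 to be compared. Of the other 25, 2 differed, beside 5.63% of all 462 miRNAs in the fit. The change in IGROV1 minus that in LIN28A-overexpressing DU145 was -0.53 ± 0.13 on the log2 odds scale for miR-17-5p (adjusted p = 0.00463, edgeR) and -0.72 ± 0.18 for miR-629-5p (adjusted p = 0.00426, edgeR). Under limma 0 of the 28 differed, with 7 at an unadjusted p under 0.05. In IGROV1 the A share of miR-629-5p was 7.33% ± 0.69 (SD, n = 4) in WT, 6.75% ± 1.7 in clone 1 and 5.56% ± 0.82 in clone 2.

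The U counted on these miRNAs was nonetheless lost. In LIN28A-overexpressing DU145, the U share fell in 21 of the 22 members with enough U-tailed reads to test, with a median log2 odds ratio of -3.45, beside 86% fallen and a median of -3.74 over all 372. In IGROV1 it fell in 15 of 17, median -2.30, beside 79.5% and -2.43 over all 370. In percentage points the loss was small: the median WT U share was 1.08% and the median loss 1.05 points in LIN28A-overexpressing DU145, and 0.909% and 0.792 points in IGROV1.

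Set against this, the A gain was larger than the whole WT U share in 18 of 30 members (60%) in LIN28A-overexpressing DU145 and in 11 of 25 (44%) in IGROV1. Over all tested miRNAs these shares were 26.4% and 19.2%, and over those with at least 10% A and at least 2% U they were 28.8% and 9.72%. A low WT U share, which the rule asked for in DU145, makes this easier to reach, so these shares describe the list and are not a test. The median A gain was 2.32 percentage points in LIN28A-overexpressing DU145 (1.21 over all tested, 6.44 in the set with as much A and more U) and 1.43 points in IGROV1 (0.607 and 2.83). Of the members that rose, the gain exceeded the WT U share in 7 of 7 and in 3 of 4, and of all miRNAs that rose in 40 of 100 and in 29 of 91.

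**Figure D5:**
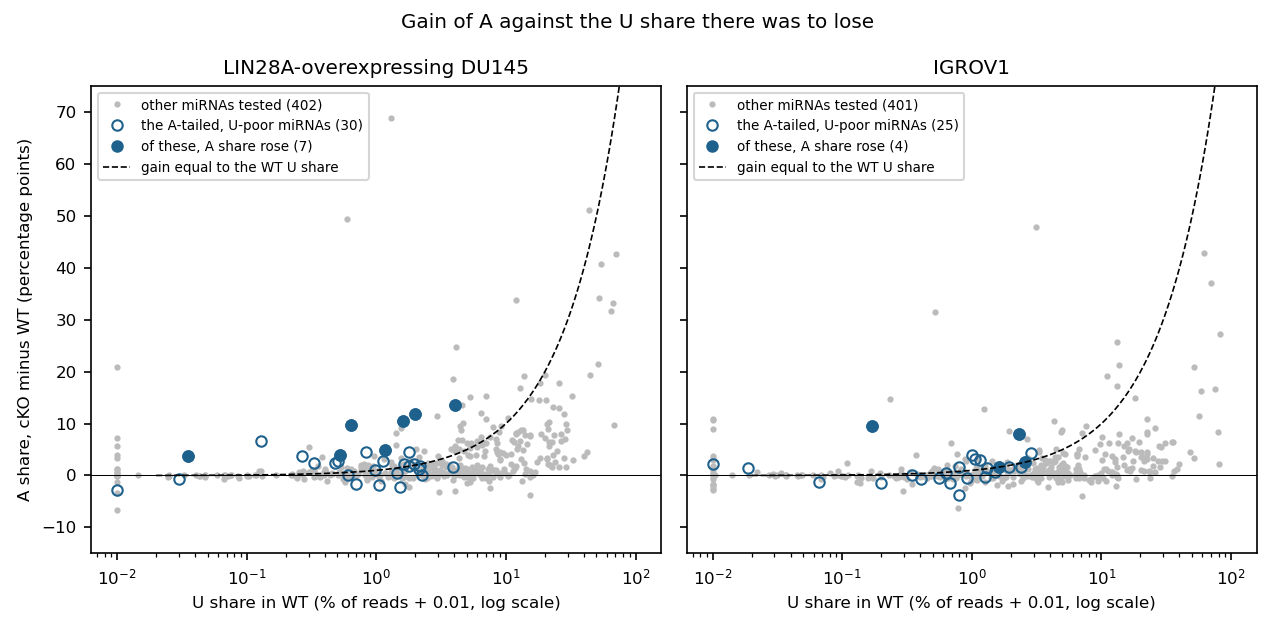
Difference in A share between the mean of the cKO clones and WT (y axis, percentage points) against the U share in WT (x axis, log scale, 0.01 added) for the members and the other miRNAs tested in LIN28A-overexpressing DU145 and IGROV1. The dashed line marks a gain equal to the WT U share: 18 of 30 and 11 of 25 members lie above it, among them 7 of the 7 and 3 of the 4 that rose.

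The share of reads with either kind of tail gave the balance of loss and gain, in a fit that was added after the data were seen. In LIN28A-overexpressing DU145 it rose in 7 of 30 members and fell in 0, beside 5.94% risen and 31.1% fallen over 438 miRNAs, with a median log2 odds ratio of 0.09 against -0.30. In the set with as much A and at least 2% U it rose in 10 and fell in 22 of 80. In IGROV1 it rose in 3 of 25 members, miR-31-5p, miR-574-5p and miR-374a-5p, and fell in 1, miR-29a-3p (-0.21 ± 0.05, adjusted p = 0.000128, edgeR), beside 4.54% risen and 38.3% fallen. The rule, by asking for little U, leaves little room for a fall, so the share fallen is partly fixed by the choice of members. Little lost U also offsets little of a gain in A, so the share risen is partly fixed too. In LIN28A-overexpressing DU145 the A share alone rose in 7 of 30 members, beside 23.1% of all miRNAs tested.

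The rises were also set out by the base under the main A position. In LIN28A-overexpressing DU145 the A share rose in 6 of 21 members whose main A position lies over a precursor U and in 0 of 5 over another base. In IGROV1 it rose in 3 of 17 and in 1 of 5. The numbers are too small for a comparison.

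Changes in tailing did not go with a common change in the level of these miRNAs. In LIN28A-overexpressing DU145, 0 of 30 members changed in abundance by edgeR, beside 0.147% of 680 miRNAs, with 5 at an unadjusted p under 0.05 (1 up, 4 down). DESeq2 called 1, miR-20b-5p (log2 fold change -1.84). In IGROV1, 8 of 25 rose and 10 fell, beside 58% changed of 678. Of the 4 whose A share rose there, miR-139-5p rose from 49.5 to 232 and 226 CPM (log2 fold change 2.34) and miR-190a-5p by 0.84, while miR-574-5p fell by 0.71 and miR-31-5p by 3.32 on that scale. In bulk libraries, fewer cells that express a miRNA and less of it per cell cannot be told apart.

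The mRNAs of the tailing enzymes were read in the poly(A) libraries. TUT4 mRNA was at 56.7 CPM in WT DU145, 12 in clone 1 and 38.5 in clone 2, at 65.2, 19.1 and 54.3 in LIN28A-overexpressing DU145, and at 83.2, 29.0 and 28.6 in IGROV1 (log2 fold changes of -1.39, -1.02 and -1.53). TUT7 mRNA was at 43.2, 14.1 and 22.0 CPM, 61.5, 22.4 and 32.2 CPM, and 36, 19.5 and 13.3 CPM (-1.28, -1.20 and -1.15). These fell in all 3 backgrounds (adjusted p from 7.46e-06 to 0.00029, edgeR), but a gene-level count does not report whether the catalytic part is made. The range of TUT4 over the 4 libraries of clone 2 in LIN28A-overexpressing DU145, 52.6 to 57.5 CPM, lay within that of WT, 53.4 to 72.6 CPM, except at its low end.

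GLD2 mRNA (PAPD4) did not pass the test in any background, with log2 fold changes of -0.02, -0.01 and -0.57 in DU145, LIN28A-overexpressing DU145 and IGROV1 (adjusted p = 0.913, 0.942 and 0.0501, edgeR). In LIN28A-overexpressing DU145 it ranged from 57.4 to 63.0 CPM in WT, from 68.6 to 76.1 in clone 1 and from 49.8 to 54.9 in clone 2, so the clones lay on opposite sides of WT. Of the list of 16 genes for tailing enzymes, Argonautes and their partners, 0 rose and 4 fell in DU145 and 0 rose and 4 fell in LIN28A-overexpressing DU145, beside 19.3% of 13839 and 19% of 14666 genes changed. In the latter background 7 changed with the replicate block. In IGROV1, 1 rose and 4 fell, beside 30% of 13932. At an unadjusted p under 0.05, 1, 2 and 2 rose, and DESeq2 called 0, 2 and 2.

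Beyond TUT4 and TUT7, PAPD5, a noncanonical poly(A) polymerase that tails RNAs bound for the exosome, fell by 0.72 in DU145 and by 0.54 in LIN28A-overexpressing DU145 on the log2 scale (adjusted p = 0.000761 and 0.00142, edgeR). FAM46C, another poly(A) polymerase, fell by 1.89 in DU145 and rose by 2.03 in IGROV1 (adjusted p = 1.24e-05 and 1.52e-06, edgeR). In LIN28A-overexpressing DU145 its change of -1.13 just missed the threshold (adjusted p = 0.0102, edgeR), while DESeq2 called it. FAM46C counts were low, with 4.63 CPM in WT DU145 and 0.682 CPM (28 reads) in clone 1. QKI, an RNA-binding protein, fell by 0.26 in LIN28A-overexpressing DU145 (adjusted p = 0.00738, edgeR), a call lost with no filter on low counts and in 8 of 12 fits that left out 1 library (WT replicates 2 and 3, clone 1 replicates 1, 3 and 4, clone 2 replicates 1, 3 and 4). AGO1 and AGO4, which hold mature miRNAs, fell by 0.51 and 0.62 in IGROV1 (adjusted p = 0.000222 and 0.00509, edgeR), and the call of AGO4 was lost whenever 1 of the 4 WT libraries was left out.

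The members nearest the limits of the rule are given once. The lowest A shares inside were 10.1% (miR-196a-3p) and 11.1% (miR-1270), and the highest outside were 9.55% (miR-151a-5p) and 9.16% (miR-3173-5p). The highest U shares inside were those of miR-190a-5p and miR-574-5p, both 1.93%, and the lowest outside 2.15% (miR-200b-5p) and 2.55% (miR-4458). The lowest mean read numbers inside were 63.25 (miR-196a-3p) and 66 (miR-663b), and the highest outside 40.25 (miR-3607-3p) and 38.25 (miR-4497). Taking ratios of summed reads gave 30 members, 30 of them shared, and counting only additions of a single base gave 25, 23 of them shared. Of the 31 members, 1 did not pass the filter on reads in LIN28A-overexpressing DU145 and 6 did not in IGROV1, and these were not tested there.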

How the data were processed

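Small RNA libraries (36, NEXTFlex kit, total RNA) and poly(A) libraries (36) were grouped by GEO's labels. For small RNA the authors trimmed adaptors and the 4 random bases at each end and deposited, per library, raw counts of reads for each 3′ modification of each mature miRNA (Chimira layout), and 1 table of mature miRNA counts from miRDeep2 on hg38. The methods describe these bases as molecular identifiers that let PCR duplicates be recognised but give no collapsing step, so counts may include PCR copies. For poly(A) RNA the authors deposited gene counts made with Trimmomatic 0.39, HISAT2 2.1.0 and HTSeq (submitters' processing notes); rows that name no gene (21.9% to 30.1% of counts) were left out. The 36 normalized per-sample columns of the miRNA table were not used.

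From these, A-only and U-only reads of each miRNA were divided by all its reads. edgeR 4.0.16 (R 4.3.3; quasi-likelihood, 1 intercept per library, A-tailed against other reads, mean of both clones minus WT, Benjamini-Hochberg over all miRNAs tested, adjusted p under 0.01) was fitted on the 12 libraries of each background, for miRNAs with a mean of at least 50 reads and at least 10 tailed reads. Abundance and mRNA were tested with edgeR after TMM. limma 3.58.1 (log2 odds, 0.5 added) and DESeq2 1.42.0 were alternatives. The procedures were tested on simulated data. Values are mean ± SD over 4 libraries, and log2 values ± SE. Libraries held 5707942 to 14067165 (modification calls), 5703566 to 13957450 (miRNA table) and 7195437 to 25054688 (poly(A)) reads. Gene names were those of the files. 1 gene of the marker list is not reported here.

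The members and the gene lists were chosen with earlier results of these data known. The miRNAs named were the 10 members with most reads over all libraries, plus members called for A in both tested backgrounds, 11 in all; others are named where stated. Replicate numbers are passages and were not used to pair libraries. The position column was taken to count from the annotated mature end, which was inferred from the values. Next bases were read from the hg38 genome beside the RefSeq mature sequences (GRCh38.p14). They are called precursor bases here, and whether each lies within the cut hairpin was not checked. The RefSeq table matched 28 of 31 members. Figures were drawn with matplotlib 3.10.9.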

Additional observations from a re-analysis of the deposited data

Results flagged for a closer look

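Among the A shares of the 11 miRNAs named by rule, 99 groups of 4 libraries were screened for a library that stands apart by Dixon's criterion at 95%, and 6 met it. Chance flags about 1 in 20 groups, so this number is close to what chance gives. miR-190a-5p in DU145 clone 2 was at 18.5% in replicate 4 and at 11.5% to 12.4% in the others. miR-29a-3p in DU145 clone 2 was at 14.0% in replicate 1 and at 12.9% to 13% in the others. In LIN28A-overexpressing DU145 WT, replicate 1 stood apart for both miR-185-5p (22.7%, the others 18.6% to 19.1%) and miR-18a-5p (31.4%, the others 25.0% to 26.0%). miR-190a-5p in IGROV1 WT was at 9.0% in replicate 4 and at 7.68% to 7.89% in the others. miR-574-5p in IGROV1 clone 1 was at 17.5% in replicate 3 and at 24.2% to 24.9% in the others.

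The change in A share differed between IGROV1 and LIN28A-overexpressing DU145 for miR-17-5p (-0.53 on the log2 odds scale) and miR-629-5p (-0.72), by a test of the difference itself in edgeR.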

How the results depend on the processing

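Of the results on single named miRNAs under each alternative, 358 kept their direction and side of the threshold, 13 passed it only under the alternative, 17 lost it and 8 changed sign. Every sign change concerned a log2 odds ratio near 0 that did not pass the test, when 1 library was left out: miR-29a-3p in LIN28A-overexpressing DU145 ranged from -0.012 to 0.12 and miR-190a-5p there from -0.029 to 0.16, and in IGROV1 miR-532-5p ranged from -0.014 to 0.035 and miR-18a-5p from -0.0093 to 0.094. The number of members whose A share rose was 4 in place of 7 in LIN28A-overexpressing DU145 with the clones pooled, and 2 in place of 4 in IGROV1 under limma; under limma 0 in place of 2 differed between backgrounds (7 at an unadjusted p under 0.05, by edgeR too). Leaving out 1 library at a time gave 5 to 9 and 3 to 6 rises of A, and 18 to 20 and 13 to 15 falls of U. In LIN28A-overexpressing DU145, 1 member, miR-20b-5p, changed in abundance in place of 0 under DESeq2, with no filter on low counts, and without WT replicate 2 or clone 1 replicate 2 (over all miRNAs 11, 3, 3 and 23 in place of 1). There, 7 in place of 4 genes of the tailing list changed under DESeq2, with the replicate block and without WT replicate 1. Counting only single-base additions lowered the median A gain in DU145 from 3.67 to 2.97 points.

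The mean correlation of same-numbered libraries' deviations from the group means ranged from -0.053 to 0.085 for tail shares over 18 pairs of groups, and no pair of groups had every correlation over 0.1; the same held for miRNA counts. For mRNA, all same-numbered libraries correlated over 0.1 in 3 of 9 pairs of groups (clones 1 and 2 of DU145 and of IGROV1, and WT with clone 2 of LIN28A-overexpressing DU145), with means up to 0.46. With the replicate block, 9 and 6 members rose in LIN28A-overexpressing DU145 and IGROV1. The cause of these changes was not tested. Depth set which members could be tested: several had too few U-tailed reads to be tested, and miR-31-5p in the IGROV1 clones rested on few reads.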
